A study of Mus musculus with 15 samples.

Results

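The 9 early genes described here are 3 Nr4a nuclear receptors (Nr4a1, Nr4a2 and Nr4a3), 3 Egr zinc finger factors (Egr1, Egr2 and Egr3) and 3 immediate early response genes (Ier2, Ier3 and Ier5). They were taken by symbol from 19937 single-symbol genes on a gene expression array, and each was read by 1 probe set. All 9 were on the array, and 8 passed the filter on mean signal and were tested. Ier2 lay below the filter and is given by its values.

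RNA came from isolated left ventricular cardiomyocytes, the contractile cells of the main pumping chamber, of male C57Bl/6NT mice 8 to 9 months old. The mice received 0.15 Gy of iron ions (1 GeV per nucleon, linear energy transfer about 151 keV per µm) as whole body irradiation, or a sham exposure. Iron cells were collected after 1 day and 3 days (3 arrays each) and after 7, 14 and 28 days (2 arrays each). Sham cells were collected after 1 day (2 arrays) and 3 days (1 array), and these 3 arrays form the sham group. For days 7, 14 and 28 the time since exposure and the exposure itself cannot be told apart. In every group the heart was digested with collagenase and cells were taken through steps of rising calcium. The labels put the yield of calcium-tolerant cardiomyocytes above 90% and allow for a few inflammatory or endothelial cells. They do not say whether arrays of a group were separate mice, so p-values measure the spread between arrays, which may be technical.

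Immediate early genes are switched on within minutes of a signal from transcription factors already present in the cell, and most are switched off again soon after. CREB at cAMP response elements, MEF2, and serum response factor at CArG boxes are their usual activators, and calcium, kinase cascades, stretch and hormones in heart muscle act through them. Nr4a receptors bind DNA at the NBRE element without a classical ligand, Egr factors bind a GC-rich site, and Ier proteins are small regulators of growth and stress responses. Genes of this kind are also known to respond to the digestion of a tissue into single cells.

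By RefSeq's GRCm38.p6 annotation, Nr4a1 lies on chromosome 15 (101253902 to 101274795), Nr4a2 on chromosome 2 (57106830 to 57124003) and Nr4a3 on chromosome 4 (48045078 to 48086447). Egr2 lies on chromosome 10 (67534469 to 67542188), Egr3 on chromosome 14 (70077317 to 70082613), Ier3 on chromosome 17 (35821713 to 35822911) and Ier5 on chromosome 1 (155096367 to 155099636). The build behind the array's own design is not given in the sources used here, and these positions are from the annotation alone.

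Promoter windows of 300 bases (250 before and 50 after an annotated start, RefSeq, GRCm38.p6) were at hand for 6 of the 9 genes, 10 windows in all, of which 5 belong to Egr2 and partly overlap. They were searched on both strands for 5 motifs: the cAMP response element TGACGTCA, its core TGACG, the CArG box, the NBRE AAAGGTCA and the Egr site GCGTGGGCG. The core lies within the full element, and a core inside a full element was not counted again in the windows of the early genes. Each of the 3 Nr4a windows held 4 cores and no full element. At least 1 core was found in 20.8% of all 32851 windows of this length, and 4 or more in 0.231% of them (76 windows). A CArG box was found in 4 of the 5 Egr2 windows and in 1.63% of all windows. In the Egr2 windows that overlap it is the same box, so those matches are not separate sites. The remaining match lies in a window that overlaps none of them (chr10:67537316-67537615) and is a separate box. The full element, the NBRE and the Egr site stood in 1.79%, 1.51% and 0.612% of all windows and in none of the 10 windows of these genes. The windows of Ier3 and Ier5 held none of the 5 motifs. A match describes letters and is not a measured binding site. Stretches with such matches are shown because the Nr4a genes share the repeated core and Egr2 carries CArG boxes. Those of Nr4a1 and Nr4a3 hold 2 of the 4 cores, and that of Nr4a2 holds all 4. That of Egr2 holds the box of the overlapping windows. Capitals mark TGACG on either strand (read as CGTCA on the opposite strand) in the Nr4a sequences and the CArG box in Egr2, and all are 5′ to 3′ on the gene's strand.
Nr4a1 (chr15:101266611-101266640, plus strand, positions -235 to -206 from the start): tgCGTCAatggaaccccgcgtgCGTCAcgc
Nr4a2 (chr2:57124004-57124253, minus strand, positions -250 to -1 from the start): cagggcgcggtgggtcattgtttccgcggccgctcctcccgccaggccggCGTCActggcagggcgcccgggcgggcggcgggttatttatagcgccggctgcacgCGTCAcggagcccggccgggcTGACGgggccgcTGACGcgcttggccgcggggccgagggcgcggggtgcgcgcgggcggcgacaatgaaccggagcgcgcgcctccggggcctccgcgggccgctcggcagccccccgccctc
Nr4a3 (chr4:48045084-48045113, plus strand, positions -221 to -192 from the start): tcccatgtCGTCAcatTGACGtctcgcatt
Egr2 (chr10:67537787-67537816, plus strand, positions -82 to -53 from the start): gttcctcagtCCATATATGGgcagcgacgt

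Values below are normalized log2 signals, so a difference of 1 is a 2-fold change. Differences carry the standard error (SE) of a limma fit over 9968 genes and 15 arrays, and each p was adjusted by Benjamini and Hochberg's method across them, with a threshold of 0.05. The comparisons of iron days with sham share the same 3 sham arrays. Arrays correlated pairwise at 0.902 to 0.995 across genes. The 12 cardiomyocyte markers listed (among them Myh6, Tnnt2 and Ryr2) stood between 11.06 and 12.89 on every array. Their mean, each gene centred over the arrays, stayed between -0.12 and 0.09. On iron day 7 against sham, Ryr2 alone of the 12 passed, lower by 0.33 (SE 0.0757, limma adjusted p = 0.0295), when 4.61% of all genes passed. An unadjusted p under 0.05 was found for 5 of the 12 on that day, against 24% of all genes. The median difference of all genes lay between -0.0342 and 0.0366 in the comparisons with sham.

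Nr4a3 and Ier5 were the early genes that rose against sham, both on day 3, where 2 of the 8 tested passed, both upward. Of all genes tested, 8.04% passed on day 3 and 2.79% passed upward. On days 1, 7, 14 and 28 none of the 8 passed in limma, against 0.0602%, 4.61%, 0.833% and 2% of all genes. At an unadjusted p under 0.05 the counts were 0, 5, 1 and 0 of the 8 on those days, against 11%, 24%, 15.4% and 19.3% of all genes, and 4 of 8 on day 3, against 27.2%. The median difference of the 8 genes from sham was 0.01 on day 1, 0.67 on day 3, 0.64 on day 7, -0.26 on day 14 and 0.37 on day 28. Over all genes the same medians were 0.0282, 0.0366, -0.0342, -0.0196 and 0.019.

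**Figure D1:**
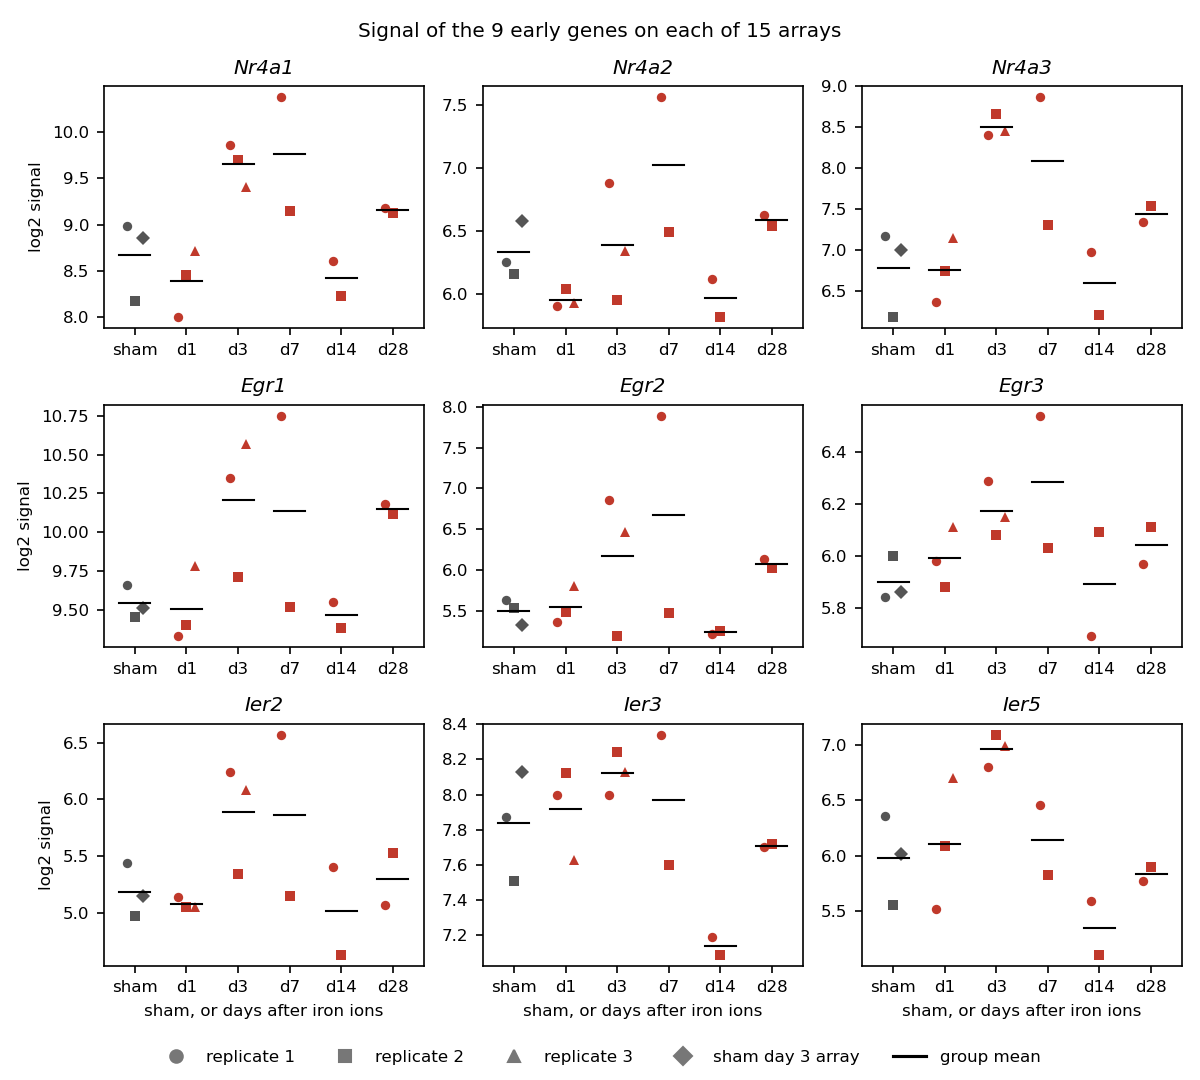
Normalized log2 signal (vertical axis, 1 panel per gene with its own scale) of the 9 early genes in sham (grey) and on days 1, 3, 7, 14 and 28 after iron ions (red), with 1 point per array and a line at the group mean. For Nr4a3 the 3 day 3 arrays sit between 8.40 and 8.66, above all sham arrays, and the day 7 arrays lie far apart at 8.87 and 7.31.

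Nr4a3, a nuclear receptor that heart muscle induces with adrenergic stimulation, showed the largest day 3 difference of the 8 tested early genes. Its signal was 7.17, 6.18 and 7.00 in the sham arrays (day 1, day 1 and day 3) and 8.40, 8.66 and 8.45 in replicates 1 to 3 of iron day 3. All 3 day 3 arrays lay above all sham arrays, and above all day 1 arrays, which stood at 6.37, 6.75 and 7.15. The day 3 mean exceeded sham by 1.72 (SE 0.355, 3.3-fold, limma adjusted p = 0.0159). Among the fits with 1 array left out, the call was lost without replicate 2 of day 3 (1.64, adjusted p = 0.0637). A fit with the replicate number as a block also lost it (limma adjusted p = 0.0622). Over all 25 alternatives run the difference ranged from 1.42 to 1.91. On day 7 replicate 1 reached 8.87 and replicate 2 only 7.31, and the difference of 1.31 (SE 0.397) did not pass (limma adjusted p = 0.0733). Day 14 (6.98 and 6.21) overlapped sham, and both day 28 arrays (7.34 and 7.54) lay just above it. The group means ran from day 3 (8.50) over day 7 (8.09), day 28 (7.44), sham (6.78) and day 1 (6.76) to day 14 (6.59). In that order the arrays of neighbouring groups overlapped except for day 28 and sham.

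Nr4a1, the family member known as Nur77, followed a similar course and fell just short of the threshold. Its signal was 8.99, 8.17 and 8.86 in sham and 9.86, 9.70 and 9.41 on day 3, again without overlap. The day 3 difference was 0.99 (SE 0.287, 1.98-fold, limma adjusted p = 0.0513). It passed in 7 of 25 alternatives, with values from 0.73 to 1.15 over all of them. On day 7 the arrays read 10.38 and 9.15, both above sham (difference 1.09, SE 0.321, limma adjusted p = 0.0687). Day 1 (8.00, 8.46 and 8.72) and day 14 (8.61 and 8.23) overlapped sham, with replicate 1 of day 1 below every sham array. Day 28 (9.18 and 9.13) stood above every sham array by a margin smaller than the spread within sham (difference 0.48, SE 0.321, limma adjusted p = 0.435).

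Nr4a2, known as Nurr1 and essential for dopamine neurons, did not share the day 3 difference. Its signal was 6.26, 6.16 and 6.58 in sham and 6.88, 5.96 and 6.34 on day 3, so that the groups overlapped (difference 0.06, SE 0.249, limma adjusted p = 0.903). On day 7 it was 7.56 in replicate 1 and 6.49 in replicate 2, the latter within the sham range (difference 0.70, SE 0.278, limma adjusted p = 0.151). Its day 1 arrays (5.91, 6.04 and 5.93) all lay below sham, as 5.8% of all genes did, with a difference of -0.37 (SE 0.249, limma adjusted p = 0.584). Day 14 (6.12 and 5.82) also lay below sham, and day 28 (6.63 and 6.54) overlapped it.

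Egr1, a growth factor-responsive zinc finger protein, was split within day 3 and within day 7. Its sham signal was 9.66, 9.45 and 9.51, and day 3 read 10.35, 9.71 and 10.57. Replicate 2 of day 3 thus stood only just above the highest sham array. The difference of 0.67 (SE 0.262, 1.59-fold) did not pass (limma adjusted p = 0.123). On day 7 the arrays read 10.75 and 9.52, on day 1 9.33, 9.40 and 9.78, and on day 14 9.55 and 9.38. Only replicate 1 of day 7 among these stood well above sham. Both day 28 arrays, at 10.18 and 10.12, were above every sham array, by 0.61 on average (SE 0.293, limma adjusted p = 0.271). This difference passed when the day 28 and sham arrays alone were fitted (adjusted p = 0.0185).

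Egr2, a relative best known for its part in myelin formation, varied most between arrays of 1 group. In sham it read 5.63, 5.54 and 5.33, and on day 3 it read 6.86, 5.19 and 6.46. Replicate 2 of day 3 held the lowest value of all 15 arrays while replicates 1 and 3 lay above all sham arrays. The difference of 0.67 had an SE of 0.485 (limma adjusted p = 0.39), and it was 1.16 without replicate 2 of day 3. On day 7 the values were 7.89 and 5.47, a 5.37-fold gap between replicates. Day 1 (5.36, 5.48 and 5.80) overlapped sham, day 14 (5.22 and 5.25) lay just below it, and day 28 (6.13 and 6.02) lay above it (difference 0.57, SE 0.542, limma adjusted p = 0.594).

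Egr3, a related factor needed for muscle spindles to form, moved over a narrow range of 0.85 across the 15 arrays. Its signal was 5.84, 6.00 and 5.86 in sham, 6.29, 6.08 and 6.15 on day 3, and 6.54 and 6.03 on day 7. These iron arrays all lay above sham, by 0.27 on day 3 (SE 0.136, limma adjusted p = 0.219) and 0.38 on day 7 (SE 0.152, limma adjusted p = 0.151). Day 1 (5.98, 5.88 and 6.11), day 14 (5.69 and 6.09) and day 28 (5.97 and 6.11) overlapped sham.

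Ier5, a target of p53 and of ionizing radiation that also acts on heat shock factor 1, rose on day 3. Its signal was 6.36, 5.56 and 6.02 in sham and 6.80, 7.09 and 6.99 on day 3, and the groups did not overlap. The difference was 0.98 (SE 0.27, 1.97-fold, limma adjusted p = 0.0431). Among the fits with 1 array left out, the call was lost without replicate 2 of day 1, any replicate of day 3, either replicate of day 28 or any sham array, with adjusted p from 0.0564 to 0.136 and differences from 0.77 to 1.17. The day 1 sham arrays alone as control, nearly the same fit as without the sham day 3 array, gave 1.00 (limma adjusted p = 0.1). A fit with the replicate number as a block also lost the call (0.84, limma adjusted p = 0.202). Ier5 was the only early gene whose highest array was not replicate 1 of day 7, which read 6.46 beside 5.83 in replicate 2. Its day 1 arrays were widely spread (5.52, 6.09 and 6.70). Day 14 (5.59 and 5.11) held its lowest array, and day 28 (5.77 and 5.90) lay within the sham range. The day 3 arrays stood above those of every other group, sham included.

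Ier3, a stress-induced regulator of cell survival, was lowest on day 14 and differed little elsewhere. It read 7.87, 7.51 and 8.13 in sham and 7.19 and 7.09 on day 14, where both arrays lay below all other 13. The day 14 difference was -0.69 (SE 0.211), with an unadjusted p of 0.00569 and an adjusted p of 0.15 in limma. On day 1 (8.00, 8.12 and 7.63), day 3 (8.00, 8.24 and 8.13), day 7 (8.34 and 7.60) and day 28 (7.70 and 7.72) it overlapped sham.

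Ier2, a nuclear protein induced by serum, stood just below the filter, with a mean of 5.388 against 5.5125, the 50th percentile of the gene means. It read 5.44, 4.97 and 5.15 in sham, 6.24, 5.34 and 6.08 on day 3, and 6.57 and 5.15 on day 7. Replicates 1 and 3 of day 3 and replicate 1 of day 7 were its 3 highest arrays, and the other arrays of those days lay within sham. Day 1 (5.14, 5.05 and 5.05), day 14 (5.40 and 4.63) and day 28 (5.07 and 5.53) overlapped sham.

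**Figure D2:**
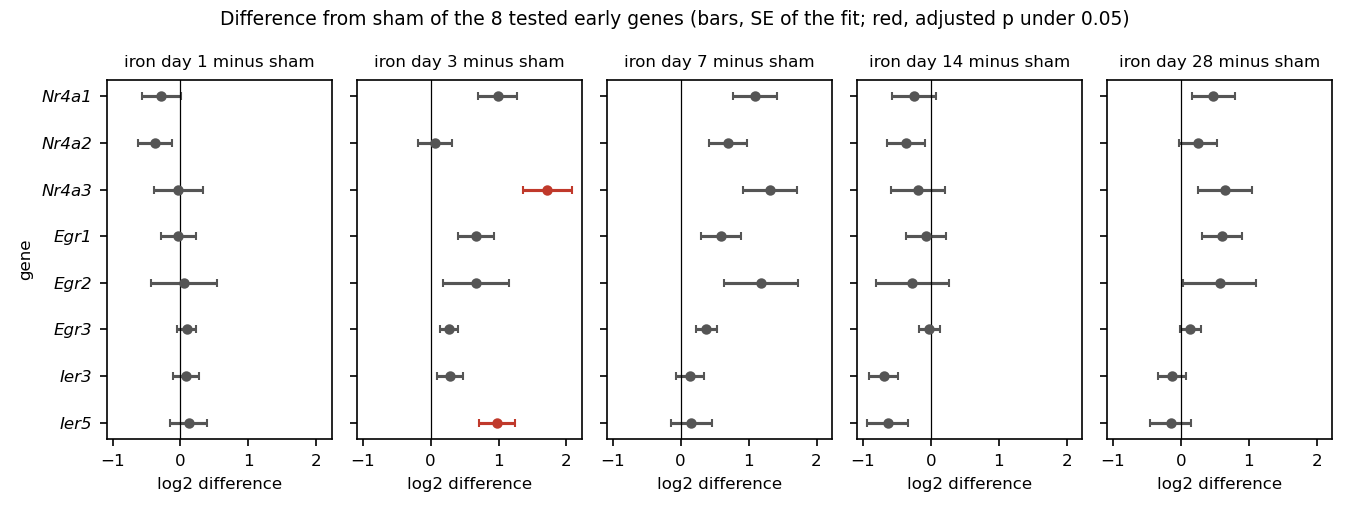
Log2 difference from sham (horizontal axis) of the 8 tested early genes on each day after iron ions, with the SE of the fit as bars and in red those with an adjusted p under 0.05. Nr4a3 (1.72) and Ier5 (0.98) on day 3 are red, and on day 7 the Nr4a genes and Egr2 lie to the right of 0 with long bars.

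Counted by arrays rather than by the fit, 5 of the 8 genes (Nr4a1, Nr4a3, Egr1, Egr3 and Ier5) had all day 3 arrays above all sham arrays, against 19.8% of all genes. On day 7 this held for Nr4a1, Nr4a3 and Egr3, 3 of 8, against 15.3% of all genes. On day 28 it held for Nr4a1, Nr4a3, Egr1 and Egr2, 4 of 8, against 25.7%. On day 14 the opposite held for Nr4a2, Egr2 and Ier3, whose arrays all lay below sham, 3 of 8 against 17% of all genes. The day 14 means were the lowest of the 6 groups in 7 of the 9 genes, the exceptions being Nr4a1 and Nr4a2, which were lowest on day 1.

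The courses over time were tested directly by an F test among the 5 iron days, which leaves the sham values out of the contrast. It passed for 4 of the 8 genes, against 19.2% of all genes. These were Nr4a3 (F = 9.30, limma adjusted p = 0.0141), Nr4a1 (F = 8.52, adjusted p = 0.0174), Ier5 (F = 7.85, adjusted p = 0.0210) and Ier3 (F = 6.05, adjusted p = 0.0365). Nr4a2 (adjusted p = 0.0586), Egr1 (adjusted p = 0.116), Egr2 (adjusted p = 0.258) and Egr3 (adjusted p = 0.267) did not pass in limma. Nr4a1 and Nr4a3 passed in all 23 alternatives run for this test. Ier3 missed the threshold when any one of 9 arrays was left out (replicate 2 of day 1, each array of days 3, 14 and 28, or replicate 1 of sham day 1), with adjusted p up to 0.115. With 1 array left out, Ier5 missed it without replicates 2 or 3 of day 3 or replicate 1 of day 28, with adjusted p up to 0.0661. Ier5 also missed it in a fit with the replicate number as a block (limma adjusted p = 0.0569).

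Between neighbouring iron days none of the 8 genes passed in limma. From day 1 to day 3 the median difference was 0.66, and 0.0502% of all genes passed. An unadjusted p under 0.05 was found for 4 of the 8, against 12.9% of all genes. Nr4a3 was higher on day 3 by 1.75 (SE 0.355, adjusted p = 0.0925), Nr4a1 by 1.26 (SE 0.287, adjusted p = 0.127) and Ier5 by 0.86 (SE 0.27, adjusted p = 0.237). All day 3 arrays of these 3 genes lay above all day 1 arrays, as held for 9.74% of all genes. From day 3 to day 7, 14.8% of all genes passed, and the median of the 8 was 0.01. An unadjusted p under 0.05 was found for 2 of the 8, against 30.5% of all genes. Ier5 differed by -0.81 (SE 0.302, adjusted p = 0.0876), and Nr4a2 by 0.64 (SE 0.278, adjusted p = 0.138). Both day 7 arrays of Ier5 lay below all day 3 arrays, as held for 29.4% of all genes.

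From day 7 to day 14 the 8 genes had a median difference of -0.94, and 7 of them had an unadjusted p under 0.05, against 14.5% of all genes (1444). After adjustment 0% of all genes passed. The differences were -1.50 for Nr4a3, -1.45 for Egr2, -1.34 for Nr4a1, -1.06 for Nr4a2 and -0.83 for Ier3, with adjusted p from 0.153 to 0.293 in limma. Both day 14 arrays lay below both day 7 arrays in 6 of 8 genes (all but Egr1 and Egr3), against 17.2% of all genes. From day 14 to day 28 the median was 0.65 and 0.321% of all genes passed. All 8 but Egr3 had both day 28 arrays above both day 14 arrays, 7 of 8 against 34% of all genes. The differences reached 0.85 in Nr4a3 (SE 0.435, adjusted p = 0.25) and 0.57 in Ier3 (SE 0.231, adjusted p = 0.171).

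The day 7 group was made of arrays that stood far apart for these genes. Replicate 1 held the highest signal of all 15 arrays for 8 of the 9 genes, and the mean of the 9, each centred over the arrays, was 1.07 there and -0.13 in replicate 2. Replicate 1 exceeded replicate 2 by 2.42 in Egr2, 1.56 in Nr4a3, 1.42 in Ier2, 1.23 in Nr4a1 and in Egr1, and 1.07 in Nr4a2. The gaps were 0.74 in Ier3, 0.63 in Ier5 and 0.51 in Egr3. A gap over 1 was found for 5 of the 8 tested genes and for 1.1% of all genes tested, whose median gap was -0.0336. Without replicate 1 the day 7 differences from sham were 0.53 for Nr4a3, 0.48 for Nr4a1, 0.16 for Nr4a2, -0.02 for Egr1 and -0.03 for Egr2. Without replicate 2 they were 2.09, 1.70, 1.23, 1.21 and 2.39. Those differences rest on replicate 1 alone, the highest of all 15 arrays for each of these 5 genes.

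The spread between these arrays also enters the error of every other day. With both day 7 arrays left out, a fit chosen after the values were seen, 4 of 8 genes passed on day 3 (Nr4a1, Nr4a3, Egr1 and Ier5). The Nr4a3 difference was still 1.72, with an SE of 0.263 (limma adjusted p = 0.00407), and that of Ier5 was 0.98 with an SE of 0.26 (adjusted p = 0.0339). From day 1 to day 3 Nr4a1 and Nr4a3 then passed, when the count over all genes was 17, against 5 with all arrays.

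**Figure D3:**
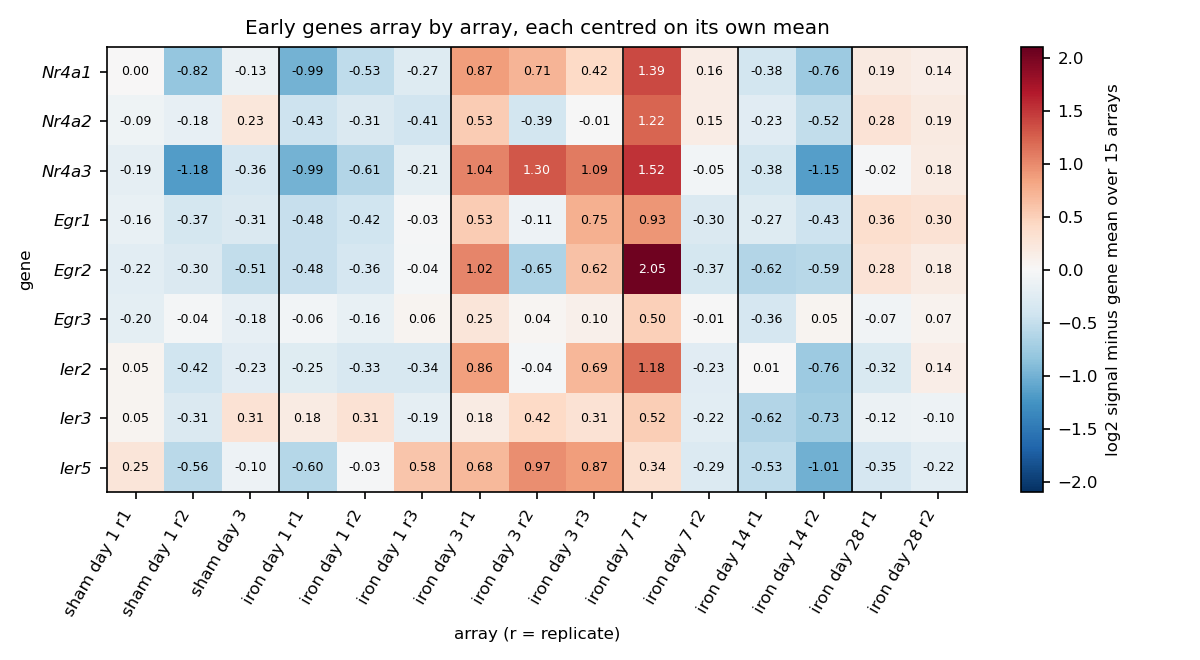
Log2 signal of the 9 early genes (rows) on the 15 arrays (columns, grouped by sham and iron day), each gene centred on its mean over the arrays, with the value printed in each cell. Replicate 1 of day 7 is high in all 9 genes, day 3 is high in most, and replicate 2 of day 14 is low in 8 genes.

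Day 3 was not uniform either. The mean of the 9 centred genes was 0.66, 0.25 and 0.54 in replicates 1 to 3, and replicate 2 parted the genes. It was high for Nr4a1, Nr4a3, Ier3 and Ier5 (centred values 0.71, 1.30, 0.42 and 0.97) and below the gene's own mean for Nr4a2 (-0.39), Egr1 (-0.11), Egr2 (-0.65) and Ier2 (-0.04). Sham was spread as well, with a mean of -0.06 and -0.47 in the day 1 arrays and -0.14 in the day 3 array. The means were -0.46, -0.27 and -0.09 on day 1, -0.38 and -0.66 on day 14, and 0.03 and 0.10 on day 28.

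The genes varied together across the arrays to different degrees. Correlated with the mean of the 8 tested genes, of which each is a part, Nr4a1 had r = 0.953, Nr4a3 0.944, Egr1 0.909 and Egr2 0.868 over the 15 arrays. Nr4a2 (0.784), Egr3 (0.759), Ier5 (0.751) and Ier3 (0.677) followed. The genes outside the set closest to this mean were Btg2 (r = 0.956), Fos (0.95), Jund (0.946), Fosb (0.938), Zfp36 (0.928) and Atf3 (0.915). Btg2 is an antiproliferative early gene, Fos, Fosb and Jund are subunits of the AP-1 factor, Zfp36 promotes decay of short-lived messages, and Atf3 is a stress factor. These r describe arrays that share the groups and the high array of day 7.

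Of other immediate early genes, 53 were on the array and 46 were tested. On day 3, when 8.04% of all genes passed, 9 rose and 1 fell, and their median difference was 0.23. An unadjusted p under 0.05 was found for 20 of 46 on day 3 and 28 of 46 on day 7, against 27.2% and 24% of all genes. Atf3 rose by 1.77 (SE 0.439), Gadd45b by 1.25 (SE 0.299), Ccn1, a matrix signalling protein, by 1.14 (SE 0.274) and Dusp1, a phosphatase of stress kinases, by 0.98 (SE 0.22), with limma adjusted p from 0.0202 to 0.0288. Gadd45a rose by 0.58, Rhob by 0.52 and Arc by 0.68. Ptgs2, which makes prostaglandins, fell by 1.29 (SE 0.306, limma adjusted p = 0.0252). With 1 array left out, the day 3 count of 10 fell to 1 without replicate 1 or 2 of day 3 or replicate 1 of sham day 1, to 2 without the day 3 sham array or replicate 2 of sham day 1, and to 3 without replicate 3 of day 3. On day 7, when 4.61% of all genes passed, the median was 0.54. Nfkbia, an inhibitor of NF-kB, rose by 0.76 and Errfi1, an inhibitor of growth factor receptors, by 1.09, while the clock gene Per1 fell by 0.57. That count of 3 was 0 without replicate 1 of day 7 and 19 without replicate 2, 0 without either replicate of sham day 1, 1 without the sham day 3 array, replicate 3 of day 3 or either replicate of day 28, and 5 without replicate 1 of day 1. On days 1 and 14 none passed in limma (6 and 5 with unadjusted p under 0.05), and on day 28 Per1 alone did (-1.04, limma adjusted p = 0.00164).

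Genes that act upstream of the early genes, such as their kinases and transcription factors, passed in 3 of 31 cases on day 3, near the share of all genes, 8.04%. Of these 3, Hdac5, a repressor of MEF2, rose on day 3 by 0.44 (SE 0.121, limma adjusted p = 0.0419). On that day Elk3, a partner of serum response factor, fell by 0.82 (SE 0.208) and the kinase gene Rps6ka3 by 0.35 (SE 0.0922). Camk2d, the main calcium and calmodulin kinase of the heart, fell on day 7 by 0.33 (SE 0.0818, limma adjusted p = 0.0371). Their median difference was 0.03 on day 3 and -0.09 on day 7. Among 9 tested partners 1 passed on day 3, near the share of all genes, 8.04%. It was Nab1, a corepressor of Egr factors, which fell by 0.42 (SE 0.0887, limma adjusted p = 0.0164). The other 8 did not pass against sham on any day in limma.

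Heat shock genes moved with the early genes in part. The mean of 11 heat shock genes, each centred over the arrays, was highest in replicate 1 of day 7 (0.58, beside 0.19 in replicate 2). It was 0.07 to 0.16 on day 3 and -0.38 to -0.08 in sham. On day 28 it was 0.30 and 0.34, above day 3, while the mean of the early genes was 0.03 and 0.10. Day 1 ran from -0.76 to 0.09, and day 14 read 0.06 and -0.37. Of the 11, 1 passed on day 3 and 1 on day 7, against 8.04% and 4.61% of all genes. Bag3, a cochaperone, rose on day 3 by 0.47 (SE 0.109, limma adjusted p = 0.0224) and Hsph1 on day 7 by 1.08 (SE 0.25, limma adjusted p = 0.0309). At an unadjusted p under 0.05 the counts were 0, 5, 10, 0 and 7 on days 1, 3, 7, 14 and 28. The shares of all genes were 11%, 27.2%, 24%, 15.4% and 19.3%. The part of cell isolation in the early gene differences was not tested.

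Of the markers of other cells, 12 of 12 fibroblast, 11 of 11 endothelial and 11 of 11 macrophage genes were on the array. On day 3, when Nr4a3 and Ier5 rose, 8.04% of all genes passed in either direction. On that day 9 of 11 tested fibroblast, 7 of 11 endothelial and 7 of 8 macrophage markers passed downward. The fibroblast mean was -0.72 to -0.55 on day 3 and 0.54 to 0.69 in sham, the endothelial mean -0.78 to -0.40 and 0.29 to 0.63, and the macrophage mean -0.86 to -0.58 and 0.25 to 0.53. On day 7 the macrophage mean was 1.36 in replicate 1 and 0.85 in replicate 2, both above the other 13 arrays. The neutrophil mean (5 genes, none tested) was 0.71 in replicate 1 and -0.22 in replicate 2, against -0.04 to 1.09 in sham. On day 28 the lymphocyte mean (9 of 10 genes on the array) was 1.77 to 1.93, against -0.69 to 1.18 in sham. Smooth muscle and pericyte markers (9 genes) had a mean of -0.47 to -0.16 on day 3 and -0.23 to 0.50 in sham. In bulk RNA, fewer cells of a type and less RNA per cell cannot be told apart. The part of these cells in the early gene differences was not tested.

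**Figure D4:**
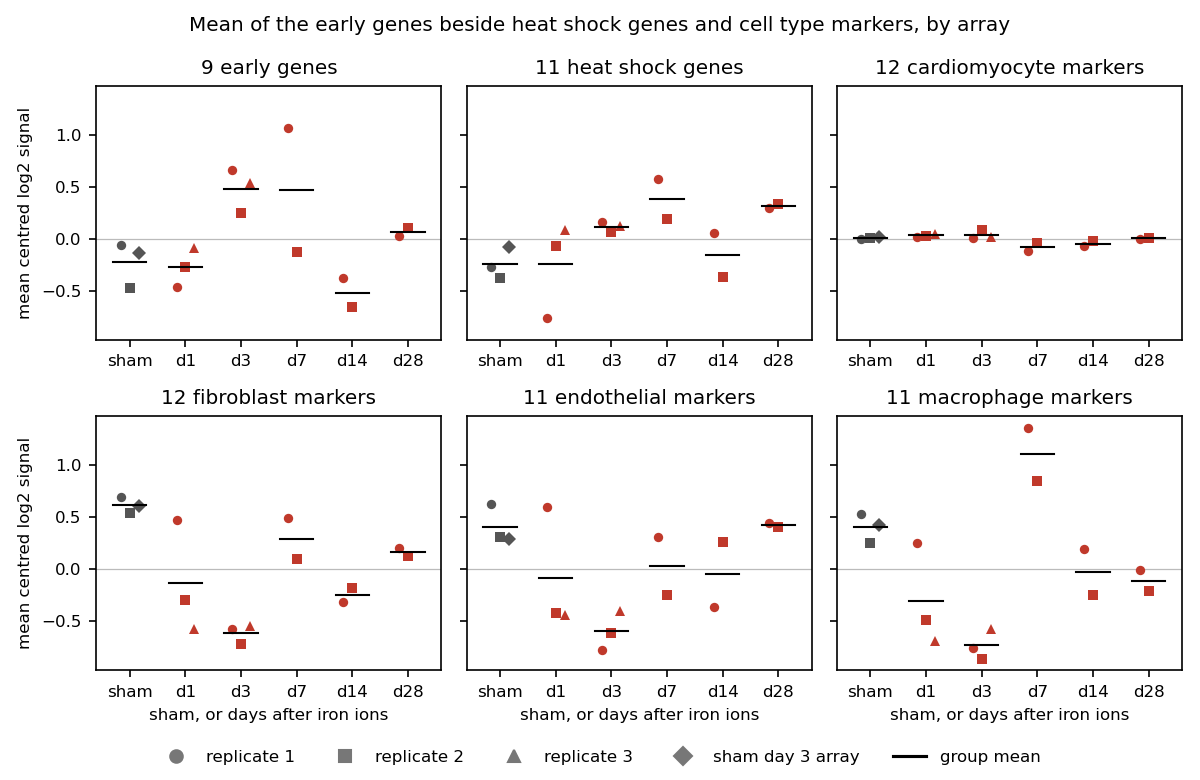
Mean centred log2 signal (vertical axis) of the 9 early genes, 11 heat shock genes and 4 sets of cell type markers, with 1 point per array in sham (grey) and on each day after iron ions (red), and a line at the group mean. The early genes and heat shock genes peak in replicate 1 of day 7, fibroblast, endothelial and macrophage markers are low on day 3, and cardiomyocyte markers stay between -0.12 and 0.09.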

How the data were processed

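The submitters' processing notes name MAS5, with no version or role. The deposited values were normalized log2 signals of 34760 probe sets on 15 arrays (0.2343 to 13.01, 0 missing), used as they stood. Array medians lay between 4.959 and 5.134.

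Of the probe sets, 21640 had 1 symbol, 1321 several and 11799 none, by an annotation table that can be old, and symbols were updated through the Entrez ID (21553 matched). Each of 19937 genes was given by its probe set of highest mean. The 9968 genes with a mean above the 50th percentile (5.5125) entered a limma fit (3.58.1, R 4.3.3): 6 group means, moderated variances with an intensity trend, 9 residual degrees of freedom, Benjamini-Hochberg adjustment, threshold 0.05. The fit was tested on simulated data.

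The genes and the 12 lists were chosen with earlier results of these data known. All 9 early genes are named. Of the other early, upstream, partner and heat shock genes, a gene is named if it passed against sham, at most the 8 smallest p per list and day. Cell type markers are given mainly as counts and means, and most marker genes that passed are not named. The 6 genes most correlated with the early genes are named besides. Alternatives were quantile normalization, median centring, no filter, a stricter filter (6646 genes), no intensity trend, the mean over probe sets, only the arrays compared, the day 1 sham arrays as control, a replicate block and each array left out. The day 1 sham control gave nearly the same fit as leaving out the sham day 3 array. The number of arrays limits the precision. Proton exposure was not analysed here. Tables and figures were made with pandas 2.3.3, numpy 2.4.6 and matplotlib 3.10.9 in Python 3.11.15.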

Additional observations from a re-analysis of the deposited data

Results flagged for a closer look

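Among the 5 iron days, 4 of the 8 tested early genes differed by the F test of limma, against 19.2% of all genes. That test is of the difference between days itself. Of the 15 fits with 1 array left out, Ier3 missed the threshold in 9 and Ier5 in 3. F was 9.299 for Nr4a3 (adjusted p = 0.0141), 8.519 for Nr4a1 (adjusted p = 0.0174), 7.847 for Ier5 (adjusted p = 0.0210) and 6.05 for Ier3 (adjusted p = 0.0365). Nr4a3 and Ier5 had their highest group mean on day 3 (8.50 and 6.96), Nr4a1 on day 7 (9.76) and Ier3 on day 3 (8.12), and the lowest mean of Ier3 was on day 14 (7.14). No sham array was collected on days 7, 14 or 28, so these differences are between days of iron-exposed cells.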

How the results depend on the processing

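No early gene that passed changed sign in any alternative run. Of day 7 differences that did not pass, those of Egr1 and Egr2 were -0.02 and -0.03 without replicate 1 of day 7, and those of Ier3 and Ier5 -0.24 and -0.15. The day 3 count of 2 early genes was 1 (Nr4a3) under the stricter filter, which does not test Ier5, and 1 with the day 1 sham arrays as control. It was 4 without both day 7 arrays (chosen after the values were seen), and 0 to 4 with each array left out, 0 being without replicate 2 of day 3 and 4 without either day 7 array. Day 7 gave 0 to 5 early genes with each array left out (5 without replicate 2 of day 7), day 3 minus day 1 gave 0 to 2 (2 without either day 7 array), day 7 minus day 3 gave 0 to 2, day 14 minus day 7 gave 0 to 6 (6 without replicate 2 of day 7) and the F test 2 to 7. Fitting only the arrays compared gave 1 on day 28 (Egr1), 1 for day 7 minus day 3 (Ier5) and 3 for day 28 minus day 14 (Egr1, Egr2 and Ier3). Day 3 minus day 1 gave 2 without both day 7 arrays. Counts for days 1 and 14 against sham stayed at 0 in limma in all alternatives. The cause of these moves was not tested. The replicate block, run without the sham day 3 array, which carries no number, gave 0 early genes on day 3, with Nr4a3 at 1.75 (adjusted p = 0.0622) and Ier5 at 0.84 (adjusted p = 0.202), and Ier5 missed the F test (adjusted p = 0.0569). The numbers were not shown to pair the arrays: residuals of the 31 pairs with the same number correlated at -0.394 to 0.565 (median 0.0616), against -0.565 to 0.49 (median -0.029) for 50 pairs with other numbers.

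Counts over all genes, the source of the shares given beside the early genes, moved too. With each array left out they ran from 0 to 363 on day 1, 126 to 1083 on day 3, 46 to 556 on day 7, 25 to 167 on day 14 and 41 to 477 on day 28. They ran from 0 to 33, 143 to 1723, 0 to 350 and 0 to 488 between neighbouring days, in order, and from 612 to 2577 in the F test. Day 1 (6) was 0 with no filter, the arrays compared, the day 1 sham or the block, and 2 without the trend. Day 3 (801) was 451 under the stricter filter, 270 with the day 1 sham and 157 with the block. Day 7 (460) was 1269 with median centring and 45 with the arrays compared. Day 14 (83) was 54 with the block. Day 28 (199) was 107, 476 and 395 under the stricter filter, the day 1 sham and the block. Day 3 minus day 1 (5) was 10 with median centring, 2 with the mean over probe sets, 0 with the arrays compared, 8 with the block and 17 without day 7. Day 14 minus day 7 (0) was 3 with the block. Day 28 minus day 14 (32) was 10 with quantile normalization, 0 with median centring, 56 with no filter, 7 under the stricter filter, 270 with the arrays compared, 105 with the block and 203 without day 7. The F test (1912) was 1260 with the block. Median centring moved the median of all genes on day 28 from 0.019 to -0.0885, and the share of higher calls from 34.7% to 22.9% on day 3, 42.2% to 15% on day 7, 70.9% to 38% on day 28 (58.6% with quantile normalization) and 45.6% to 31.6% for day 7 minus day 3. The other early genes on day 3 (10) were 2 with the day 1 sham and 0 with the block.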
